A study of Mus musculus with 18 samples.

Results

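The comparison was the difference between 2 cell lines in their response to docetaxel, a taxane drug that stabilises microtubules and arrests dividing cells in mitosis. It used the 12 of 18 RNA sequencing libraries that came from cells with a functional integrin β3 or with none, and it was taken as the change with docetaxel in the first line minus the change in the second. All groups were PyMT-BO1 cells, a mouse breast cancer line on a C57BL/6 background described in the labels as luminal B-like, with integrin β3 knocked out. The hβ3 line had then received human integrin β3 by retrovirus and the pMx line the empty retroviral vector. The 4 groups were hβ3 with 10 nM docetaxel, hβ3 with DMSO, pMx with 10 nM docetaxel and pMx with DMSO, each treated for 24 h in 3 cultures in plastic wells. A further 6 libraries of cells rescued with a signalling-deficient integrin β3 (Δβ3) were not in the fit.

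With 1 line per construct, p-values reflect only how much cultures vary, and everything else that sets the lines apart is part of the difference. Total counts ran from 7972612 to 18961392 per library. Rn45s, the precursor of ribosomal RNA, took 15.8%, 11.1% and 19.2% of counts in hβ3 docetaxel and 27.5%, 10.9% and 33.0% in hβ3 DMSO, against 6.59% to 8.81% in pMx docetaxel and 8.36% to 9.81% in pMx DMSO. Levels of single genes are given below in CPM (counts for each 1e6 of the TMM-scaled library). Marker levels and sums are instead counts for each 1e6 of a library's total without Rn45s. On that scale Krt8 and Krt18, of the markers of luminal cells, had at least 986 in each of the 12 libraries. Epcam, Krt19, Cldn3, Cldn4, Cldn7, Spint1 and Spint2 had between 0 and 8 counts in all 12 libraries together, Cdh1 had 207 and Krt7 had 130. Vim, of the basal and myoepithelial markers, had 11100 to 12800 on the same scale in the 12 libraries, above Krt8 and Krt18. Krt5, Krt14 and Trp63 of that list had 8, 1 and 0 counts in all 12 together. Because Canx and Lamp1, which every cell uses, also had 0 counts in this table, few or no counts here do not show a gene to be silent. On the scale without Rn45s, transcripts of 28 heart muscle markers summed to 254 to 1051 in hβ3 docetaxel and 289 to 663 in hβ3 DMSO. In pMx the sums were 337 to 3660 with docetaxel and 615 to 3064 with DMSO.

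Integrin β3 pairs with integrin αv on tumour cells to bind vitronectin, fibronectin and other matrix proteins. When it is engaged, it recruits talin and kinases of the FAK and SRC families and feeds into MAPK and other signalling pathways. Docetaxel acts in the same cells through microtubules, and cells that leave a prolonged mitosis can activate p53, interferon genes and programmed cell death.

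The bases before the starts of 2 genes are shown because these genes stand for the opposite sides of the comparison: Plk2, with the smallest p of all genes, responded lower in hβ3, and Mcm7, with the smallest p of the DNA replication genes, responded higher. Each sequence is the 250 bases before the gene's start in RefSeq (GRCm38.p6), 5′ to 3′ on the gene's strand. In Plk2 (chr13:110394794-110395043, plus strand) the capitals mark TGACGTCA, the binding motif of CREB and ATF factors. In Mcm7 (chr5:138171884-138172133, minus strand) they mark GCGGGAAA, which is the E2F motif TTTCCCGC read from the other strand. A second E2F motif, TTTGGCGC, was searched as well, and so were a motif of AP-1 and the CArG box. The same stretches of Mcm2, Junb, Klf4, Rgs2 and Itga2 were also searched and held none of the motifs, so the 2 printed are those with a match. E2F factors control genes of DNA replication.
Plk2: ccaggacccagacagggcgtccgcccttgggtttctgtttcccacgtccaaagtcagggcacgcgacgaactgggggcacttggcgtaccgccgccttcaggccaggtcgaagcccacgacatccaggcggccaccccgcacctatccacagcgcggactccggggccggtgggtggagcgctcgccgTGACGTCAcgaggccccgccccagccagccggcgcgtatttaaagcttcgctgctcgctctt
Mcm7: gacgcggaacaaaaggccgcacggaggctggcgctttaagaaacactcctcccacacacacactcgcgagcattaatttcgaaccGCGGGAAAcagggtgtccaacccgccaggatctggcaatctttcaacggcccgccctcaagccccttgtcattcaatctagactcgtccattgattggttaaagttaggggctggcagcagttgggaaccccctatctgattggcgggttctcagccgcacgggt
The Mcm7 stretch lies inside the longer gene model used for the coordinates below. Both strands were searched, and the motifs do not overlap. Of all 27018 RefSeq promoters of this length 1.62% held TGACGTCA and 1.35% held an E2F motif, and among the 7865 tested genes with a promoter there the shares were 2.8% and 2.77%. An E2F motif was in 4 of 87 promoters of genes with a higher response and in 3 of 78 of those with a lower one, and TGACGTCA in 0 of 87 and 1 of 78. The AP-1 motif was in 6 of 87 and 6 of 78, against 4.27% of tested genes. The CArG box was in 1 of 87 and 1 of 78, against 1.21%. Of the 9 called DNA replication genes with a promoter in the table Mcm7 was the 1 with an E2F motif. A match of letters is a description of the sequence only.

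Itgb3 (chromosome 11, 104608000 to 104670476), the targeted gene, had 122, 106 and 103 CPM in hβ3 cultures with docetaxel and 126, 74 and 134 CPM in hβ3 cultures with DMSO, against 0.658, 0.867 and 0.434 CPM in pMx cultures with docetaxel and 1.34, 1.31 and 0.331 CPM in pMx cultures with DMSO. The lines did not overlap in either treatment. The rescue construct is human and reads were counted on the mouse genome, so they are no measure of how much of its RNA was made. The response of Itgb3 to docetaxel did not pass the test in either line, and its difference in response was 0.66 ± 0.72 on the log2 scale (SE, adjusted p = 0.732). Itgav, which encodes the αv partner, had a difference of -0.14 ± 0.12 (adjusted p = 0.63), with a 95% interval from -0.38 to 0.10.

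The first question was how many genes responded differently with functional β3, and in what way. Of 11646 tested genes 213 (1.83%) passed edgeR's quasi-likelihood F-test at 0.05 after Benjamini-Hochberg adjustment and are referred to as called. The response was higher in hβ3 for 106 of them (0.91%) and lower for 107 (0.919%). Docetaxel changed 1444 genes in hβ3 (12.4%; 793 rose, 6.81%, and 651 fell, 5.59%) and 2509 genes in pMx (21.5%; 1156 rose, 9.93%, and 1353 fell, 11.6%). The responses of both lines and their difference share libraries, so they are not separate evidence. The count rested on single libraries: it was 58 without pMx DMSO culture 2 and 395 without hβ3 DMSO culture 2, and 56 genes kept their call without any 1 of the 12 libraries.

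For most genes with a different response the larger response was in pMx. Of the 213 genes 154 had the larger absolute response in pMx, against 6654 of all 11646 tested genes. Among the 106 genes with a higher response in hβ3 the median log2 response was 0.11 in hβ3 and -0.47 in pMx, and 88 lay below 0 in pMx. Among the 107 genes with a lower response in hβ3 the medians were -0.18 in hβ3 and 0.54 in pMx, and 103 lay above 0 in pMx. Over all tested genes the medians were 0.00 in both lines and 0.03 for the difference.

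By the test within each line, 109 of the 213 genes were called in pMx only, 45 in both lines in the same direction, 39 in hβ3 only, 17 in both lines in opposite directions and 3 in neither. Over all 11646 tested genes the counts in the same order were 1566, 926, 501, 17 and 8636. The 17 with opposite responses were chosen by the responses in both lines. The 11 that fell in hβ3 and rose in pMx were Rnf213, Plk2, Pmepa1, Chka, Col7a1, Bhlhe40, Suox, Klf4, Wdfy3, Crebbp and Kctd11. The 6 that rose in hβ3 and fell in pMx were Prkar2b, Grem1, Bok, Loxl3, Aspa and Ndufa4. Just inside the threshold was AK028705 with a difference of -1.29 (adjusted p = 0.0497), and just outside it was Psip1 with 0.46 (adjusted p = 0.051).

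**Figure D1:**
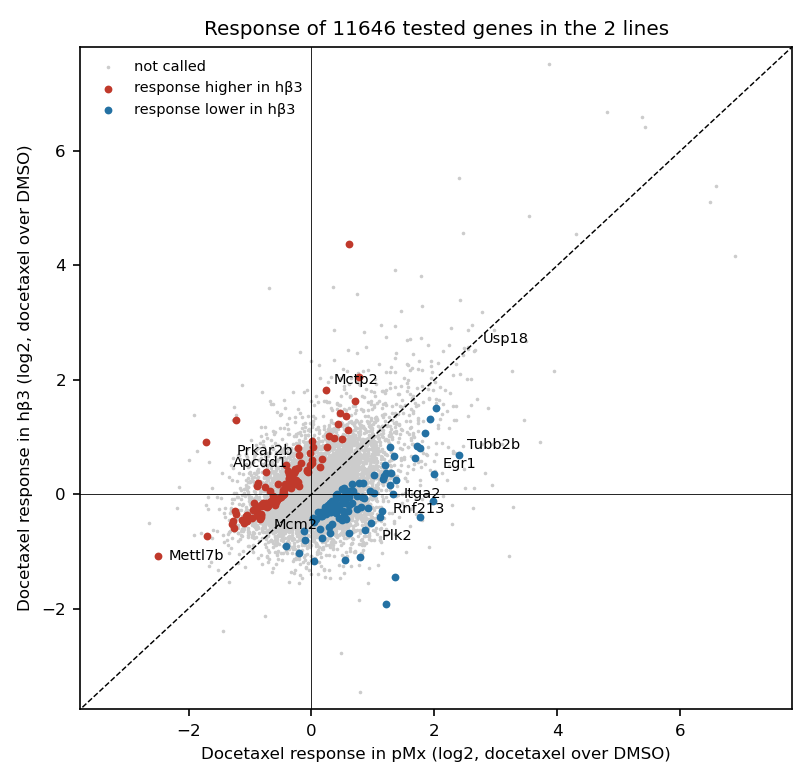
Log2 docetaxel response of each of 11646 tested genes in pMx (x axis) and in hβ3 (y axis), with 106 genes called higher in hβ3 in red and 107 called lower in blue. The dashed line marks equal responses. Most called genes lie away from 0 along the pMx axis, and Plk2 and Prkar2b lie in opposite corners.

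Plk2 (chromosome 13, 110395046 to 110400844), a kinase induced by p53 and by stress, gave the smallest p of all genes. It had 138, 141 and 143 CPM in hβ3 cultures with docetaxel and 197, 207 and 195 CPM in hβ3 cultures with DMSO, against 48.02, 49.98 and 47.3 CPM in pMx cultures with docetaxel and 25.5, 25.9 and 22.8 CPM in pMx cultures with DMSO. None of the 4 groups overlapped: docetaxel lowered it in hβ3, where it was high without the drug, and raised it in pMx, where it was low. The log2 response was -0.51 ± 0.07 in hβ3 and 0.97 ± 0.08 in pMx, and the difference was -1.47 ± 0.11 (SE, adjusted p = 2.67e-07). In bulk cultures a lower level in each cell and fewer cells with the transcript cannot be told apart. The call of Plk2 was kept under every alternative setting run.

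Immediate-early genes, which are transcribed within minutes of MAPK and other growth factor signals, included 4 that were called lower in hβ3 for the difference and that docetaxel raised in pMx. Egr1 (chromosome 18, 34859823 to 34864984), a zinc finger factor at the end of the ERK pathway, had 27.3, 27.3 and 26.1 CPM in hβ3 cultures with docetaxel and 18.3, 19.3 and 25.8 CPM in hβ3 cultures with DMSO, against 55.1, 77.8 and 68.2 CPM in pMx cultures with docetaxel and 14.7, 17.5 and 18.1 CPM in pMx cultures with DMSO. The pMx cultures with docetaxel stood apart, at 55.1 CPM or more each. The response was 0.35 in hβ3, not called, and 2.00 in pMx, with a difference of -1.65 ± 0.20 (adjusted p = 0.000117). Junb, a subunit of AP-1, had 43.6, 44.4 and 42.1 CPM with docetaxel and 39.9, 50.03 and 45.7 CPM with DMSO in hβ3, against 40.7, 51.9 and 45.9 CPM with docetaxel and 25.5, 28.6 and 22.8 CPM with DMSO in pMx. Its response was -0.06 in hβ3, and in pMx it rose by 0.85, to about the range of both hβ3 groups. The difference was -0.91 ± 0.16 (adjusted p = 0.00521). Reads of Junb cannot be told apart from those of Prdx2, which overlaps an exon on the other strand, because the sources used here do not state whether strand was used in counting.

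Klf4 (chromosome 4, 55527143 to 55532466), a zinc finger factor of epithelial differentiation, had 172, 168 and 177 CPM in hβ3 cultures with docetaxel and 185, 204 and 224 CPM in hβ3 cultures with DMSO, against 111, 112 and 113 CPM in pMx cultures with docetaxel and 82.5, 84.8 and 80.6 CPM in pMx cultures with DMSO. It fell in hβ3 by 0.25 and rose in pMx by 0.44, and all pMx cultures lay below all hβ3 cultures. The difference was -0.69 ± 0.11 (adjusted p = 0.00162). Dusp4, a phosphatase that switches off ERK, had a response of 0.09 in hβ3 and rose by 0.50 in pMx, with a difference of -0.41 ± 0.10 (adjusted p = 0.0351). Its call was lost without any 1 of 9 libraries (adjusted p up to 0.104).

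Of 33 tested genes of the immediate-early and MAPK list these 4 were called lower, against 0.919% over all genes, and 0 higher. Of the 33, 29 lay below 0, against 5435 of all 11646 genes. The median difference was -0.20, against 0.03 over all genes. In hβ3 1 of the 33 rose and 8 fell, against 6.81% and 5.59% over all genes, and in pMx 9 rose and 5 fell, against 9.93% and 11.6%. Rgs2 (chromosome 1, 143999338 to 144004161), which shortens Gq protein signals, moved like Egr1, with 24.4, 19.9 and 24.9 CPM in hβ3 cultures with docetaxel and 16.8, 22.6 and 18.7 CPM in hβ3 cultures with DMSO, against 40.1, 47.3 and 47.03 CPM in pMx cultures with docetaxel and 17.6, 18.4 and 15.6 CPM in pMx cultures with DMSO. Its response was 0.25 in hβ3, not called, and it rose by 1.38 in pMx to above every other culture, with a difference of -1.13 ± 0.18 (adjusted p = 0.00237).

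**Figure D2:**
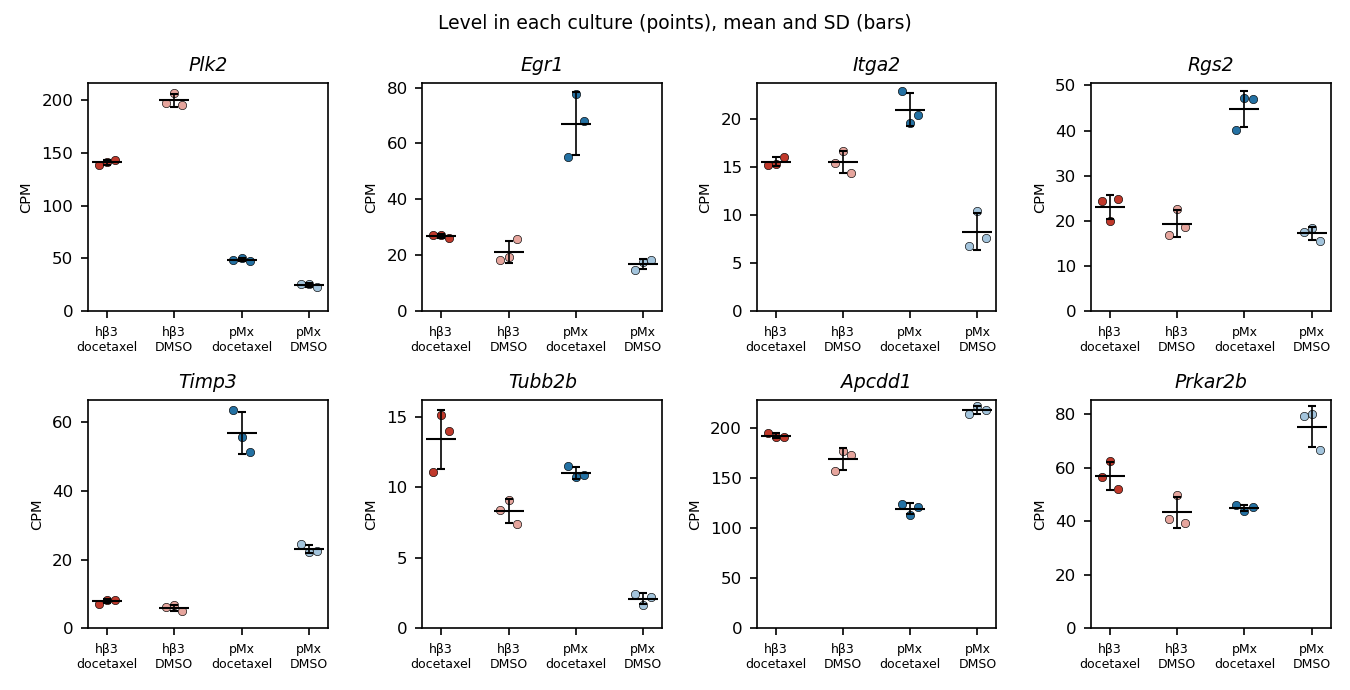
CPM of 8 named genes in each of the 12 cultures (points), with the mean and SD of 3 cultures (bars). Plk2 was highest in hβ3 with DMSO, Egr1, Itga2, Rgs2 and Timp3 were highest in pMx with docetaxel, and Apcdd1 and Prkar2b were lowest or near lowest there.

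In each line most p53 targets that changed rose. Of 31 tested p53 targets 16 rose and 1 fell in hβ3, against 6.81% and 5.59% over all genes, and 17 rose and 2 fell in pMx, against 9.93% and 11.6%. The median responses were 0.46 in hβ3 and 0.62 in pMx. For the difference 0 were called higher and 2 lower (0.919% over all genes), and 15 of 31 lay above 0. Pmaip1 (chromosome 18, 66458533 to 66465565), which encodes NOXA, a trigger of programmed cell death, had 32.8, 36.2 and 30.7 CPM in hβ3 cultures with docetaxel and 21.1, 21.3 and 21.6 CPM in hβ3 cultures with DMSO, against 13.2, 10.3 and 11.8 CPM in pMx cultures with docetaxel and 4.11, 3.09 and 3.77 CPM in pMx cultures with DMSO. The groups did not overlap, and Pmaip1 rose in both lines, by 0.64 in hβ3 and 1.69 in pMx, with a difference of -1.05 ± 0.19 (adjusted p = 0.00769). Cdkn1a, the cell cycle inhibitor p21, had a difference of -0.25, with a 95% interval from -0.94 to 0.45 (adjusted p = 0.808), at only 1.70 to 5.69 CPM per culture. Mdm2, which degrades p53, had at most 1.42 CPM in any culture, and its difference of 0.02 ± 0.69 (adjusted p = 0.991) allows no statement.

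Some genes of cell adhesion and matrix responded differently as well. Itga2 (chromosome 13, 114833081 to 114932100), the α2 subunit of a collagen receptor, had 15.2, 15.3 and 16.1 CPM in hβ3 cultures with docetaxel and 15.4, 16.7 and 14.4 CPM in hβ3 cultures with DMSO, against 22.9, 19.6 and 20.4 CPM in pMx cultures with docetaxel and 6.79, 10.4 and 7.62 CPM in pMx cultures with DMSO. In hβ3 its groups overlapped and the response was 0.00, while in pMx it rose by 1.33, with a difference of -1.33 ± 0.21 (adjusted p = 0.00175).

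Matrix metalloproteinase 3, Mmp3 (chromosome 9, 7445822 to 7455975), had 6.44, 5.47 and 5.62 CPM with docetaxel and 3.77, 2.54 and 2.91 CPM with DMSO in hβ3, against 54.4, 54.1 and 46.7 CPM with docetaxel and 51.8, 51.5 and 50.3 CPM with DMSO in pMx. It rose by 0.93 in hβ3, where it was low, and had 0.01 in pMx, with a difference of 0.92 ± 0.19 (adjusted p = 0.0166). Timp3, an inhibitor of such proteases, had 7.18, 8.17 and 8.21 CPM with docetaxel and 6.25, 6.74 and 5.09 CPM with DMSO in hβ3, against 63.5, 55.8 and 51.2 CPM with docetaxel and 24.5, 22.3 and 22.4 CPM with DMSO in pMx. Its response was 0.38 in hβ3, and it rose by 1.30 in pMx, with a difference of -0.92 ± 0.18 (adjusted p = 0.0125). The call of Mmp3 was lost without pMx docetaxel culture 3 and without pMx DMSO culture 2 (adjusted p up to 0.0624), and that of Timp3 without pMx DMSO culture 2 (adjusted p = 0.0540). Timp3 overlaps exons of Syn3 on the other strand, so reads of these genes cannot be told apart.

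Of 31 integrin and focal adhesion genes 3 were called lower and 0 higher, against 0.919% and 0.91% over all genes. The median difference was -0.14, and 13 of 31 lay above 0, against 6211 of all 11646 genes. Besides Itga2 these were Tln1, or talin, which links integrins to actin (-0.45 ± 0.11, adjusted p = 0.0431), and Vcl, or vinculin, which binds talin (-0.42 ± 0.10, adjusted p = 0.0355). Of 34 extracellular matrix and mesenchymal genes 1 was called higher (Mmp3) and 3 lower, against 0.91% and 0.919% over all genes, at a median of -0.20. Among the lower ones were Timp3 and Lama5, a laminin chain of basement membranes (-0.49 ± 0.12, adjusted p = 0.0448). Tln1 and Lama5 lost their calls without any 1 of 10 libraries, with adjusted p up to 0.143 and 0.157, and Vcl without any 1 of 9, with adjusted p up to 0.119. Tln1, Vcl and Lama5 were also not called once transcript length was corrected for, as described below, while Itga2 was.

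Col7a1, the collagen of anchoring fibrils, and Thbs2, thrombospondin 2, lie outside the rule for named genes and were chosen after their values were seen. Col7a1 had a difference of -0.86 ± 0.12 (adjusted p = 0.00054), falling by 0.57 in hβ3 and rising by 0.29 in pMx. Thbs2 had 954, 914 and 937 CPM with docetaxel and 373, 348 and 367 CPM with DMSO in hβ3, against 5166, 4765 and 4706 CPM with docetaxel and 3397, 3253 and 3268 CPM with DMSO in pMx. It rose in both lines, by 1.37 in hβ3 and 0.56 in pMx, with a difference of 0.81 ± 0.09 (adjusted p = 3.25e-05), and every hβ3 culture lay below every pMx culture. Among targets of SRF and YAP, factors that respond to actin tension, Cyr61 was called as well, also chosen after its values were seen. It fell by 1.02 in hβ3 and had -0.20 in pMx, with a difference of -0.82 ± 0.11 (adjusted p = 0.000298).

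Genes of DNA replication were among those with a higher response in hβ3. Of 33 tested genes 12 were called higher and 0 lower for the difference, against 0.91% called higher over all genes, and 30 of 33 lay above 0 with a median of 0.45. In hβ3 14 fell (5.59% over all genes) and 0 rose, at a median response of -0.34, and in pMx 26 fell (11.6% over all genes) and 0 rose, at a median of -0.74. Among the called genes were subunits of the MCM helicase that opens DNA (Mcm2, Mcm3, Mcm4, Mcm7), the helicase factor Gins2, the primase Prim1, the clamp Pcna and its loader subunit Rfc5, the histone chaperone subunit Chaf1b, the cyclin Ccne1, and Rrm2, a subunit of ribonucleotide reductase.

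Mcm2 (chromosome 6, 88883474 to 88898780) had 498, 524 and 504 CPM in hβ3 cultures with docetaxel and 649, 660.0 and 644 CPM in hβ3 cultures with DMSO, against 352, 327 and 317 CPM in pMx cultures with docetaxel and 591, 602 and 568 CPM in pMx cultures with DMSO. The groups did not overlap: Mcm2 fell in both lines, by 0.36 in hβ3 and by 0.82 in pMx, and ended lowest in pMx with docetaxel. The difference was 0.47 ± 0.09 (adjusted p = 0.00992, and 0.0501 without pMx DMSO culture 2). Mcm7 (chromosome 5, 138164583 to 138172422), whose promoter is printed above, had 399.8, 419 and 406 CPM in hβ3 cultures with docetaxel and 439.9, 436 and 424 CPM in hβ3 cultures with DMSO, against 369.6, 354 and 350.4 CPM in pMx cultures with docetaxel and 544, 525 and 534 CPM in pMx cultures with DMSO. Its response was -0.09 in hβ3, not called, and it fell by 0.58 in pMx, with a difference of 0.49 ± 0.08 (adjusted p = 0.00459). Mcm7 overlaps exons of Ap4m1 and Cops6 on the other strand and holds the precursors of 2 miRNAs, Mir25 and Mir93, so its reads may include theirs.

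Mcm4 (chromosome 16, 15623897 to 15637400) had 417, 391 and 397 CPM with docetaxel and 461, 481 and 457 CPM with DMSO in hβ3, against 309.7, 289 and 296 CPM with docetaxel and 499, 489 and 477 CPM with DMSO in pMx. It fell by 0.22 in hβ3 and by 0.71 in pMx, with a difference of 0.50 ± 0.09 (adjusted p = 0.00539). The differences of the called members ran from 0.42 (Mcm3) to 0.65 (Gins2).

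The count of 12 replication genes was 3 without pMx DMSO culture 2 and 5 without hβ3 DMSO cultures 1 and 3, the libraries with the most Rn45s. The median difference lay between 0.38 and 0.48 when any 1 library was left out. The median difference of 36 tested genes of G2/M and mitosis was -0.02. Of them 0 were called higher and 2 lower, against 0.91% and 0.919% over all genes. These 2, chosen after their values were seen, were the proliferation marker Mki67 (-0.52, adjusted p = 0.0481) and the kinetochore protein Cenpf (-0.46, adjusted p = 0.0352). Neither kept its call once transcript length was corrected for.

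**Figure D3:**
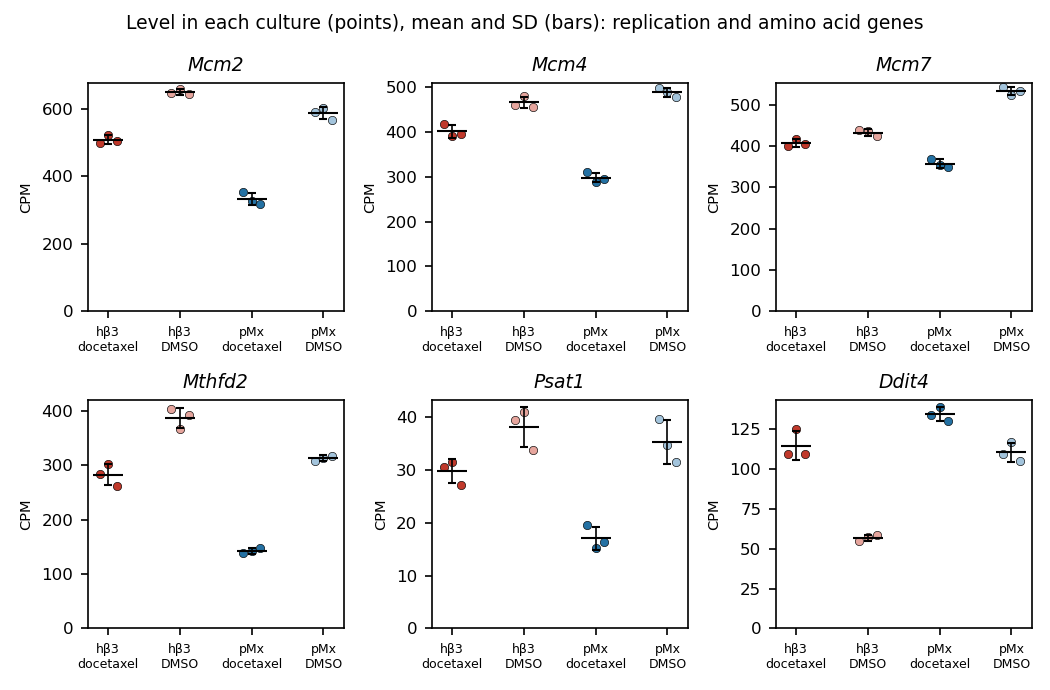
CPM of 3 DNA replication genes (Mcm2, Mcm4, Mcm7), of Mthfd2, of Psat1 and of Ddit4 in each of the 12 cultures (points), with the mean and SD of 3 cultures (bars). The replication genes, Mthfd2 and Psat1 were lowest in pMx with docetaxel, and Ddit4 was lowest in hβ3 with DMSO.

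The list for amino acid supply and ATF4, which includes the serine and folate pathways that feed nucleotide synthesis, had 3 of 30 tested members called higher and 0 lower, against 0.91% and 0.919% over all genes, at a median difference of 0.14. Mthfd2 (chromosome 6, 83305691 to 83325908), a mitochondrial folate enzyme, had 284, 302 and 263 CPM in hβ3 cultures with docetaxel and 403, 368 and 393 CPM in hβ3 cultures with DMSO, against 138, 142 and 148 CPM in pMx cultures with docetaxel and 308, 314 and 318 CPM in pMx cultures with DMSO. It fell in both lines, by 0.46 in hβ3 and by 1.13 in pMx, with a difference of 0.68 ± 0.10 (adjusted p = 0.000772). Ddit4 (chromosome 10, 59949669 to 59951834), an inhibitor of mTORC1, had 109, 125 and 109 CPM in hβ3 cultures with docetaxel and 54.6, 57.5 and 58.4 CPM in hβ3 cultures with DMSO, against 134, 139 and 130.4 CPM in pMx cultures with docetaxel and 109, 117 and 105 CPM in pMx cultures with DMSO. It rose in both lines, by 1.01 in hβ3 from a level below that of pMx, and by 0.28 in pMx, with a difference of 0.73 ± 0.11 (adjusted p = 0.00132). Psat1, an enzyme of serine synthesis, had a response of -0.36 in hβ3 and fell by 1.05 in pMx (0.69 ± 0.17, adjusted p = 0.043), and its call was lost without any 1 of 9 libraries (adjusted p up to 0.143).

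Most interferon response genes rose in each line, and 2 were called for the difference. Of 29 tested genes 19 rose in hβ3 (6.81% over all genes) and 26 in pMx (9.93%), 0 fell in either, and the median responses were 1.16 in hβ3 and 1.71 in pMx. For the difference 26 of 29 lay below 0, at a median of -0.46, and 2 were called lower against 0.919% over all genes. These were the guanylate-binding protein Gbp2 (-0.53 ± 0.13, adjusted p = 0.0364) and Ifit1, which binds viral RNA (-0.61 ± 0.15, adjusted p = 0.0395), both chosen after their values were seen. Each lost its call without any 1 of 9 libraries (adjusted p up to 0.121 for Gbp2 and 0.126 for Ifit1).

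Usp18 (chromosome 6, 121245906 to 121270917), which dampens interferon signalling, had 15.3, 18.8 and 21.3 CPM in hβ3 cultures with docetaxel and 4.19, 3.24 and 2.11 CPM in hβ3 cultures with DMSO, against 72.9, 75.5 and 74.5 CPM in pMx cultures with docetaxel and 13.6, 10.04 and 11.9 CPM in pMx cultures with DMSO. It rose in both lines, by 2.53 in hβ3 and 2.66 in pMx, and the difference was -0.13 ± 0.25 with a 95% interval from -0.62 to 0.37 (adjusted p = 0.867). Levels were lower in hβ3 than in pMx in both treatments, and the hβ3 cultures with docetaxel lay just above the pMx cultures with DMSO. Cd274, the immune checkpoint ligand PD-L1, which interferon also induces, had 11.7, 14.96 and 15.03 CPM with docetaxel and 10.4, 13.5 and 13.6 CPM with DMSO in hβ3, against 13.6, 17.1 and 16.96 CPM with docetaxel and 7.14, 5.97 and 6.62 CPM with DMSO in pMx. Its response was 0.15 in hβ3, not called, and it rose by 1.28 in pMx, with a difference of -1.13 ± 0.22 (adjusted p = 0.0123). Its call was lost without pMx docetaxel culture 3 and without pMx DMSO culture 2 (adjusted p up to 0.0594).

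**Figure D4:**
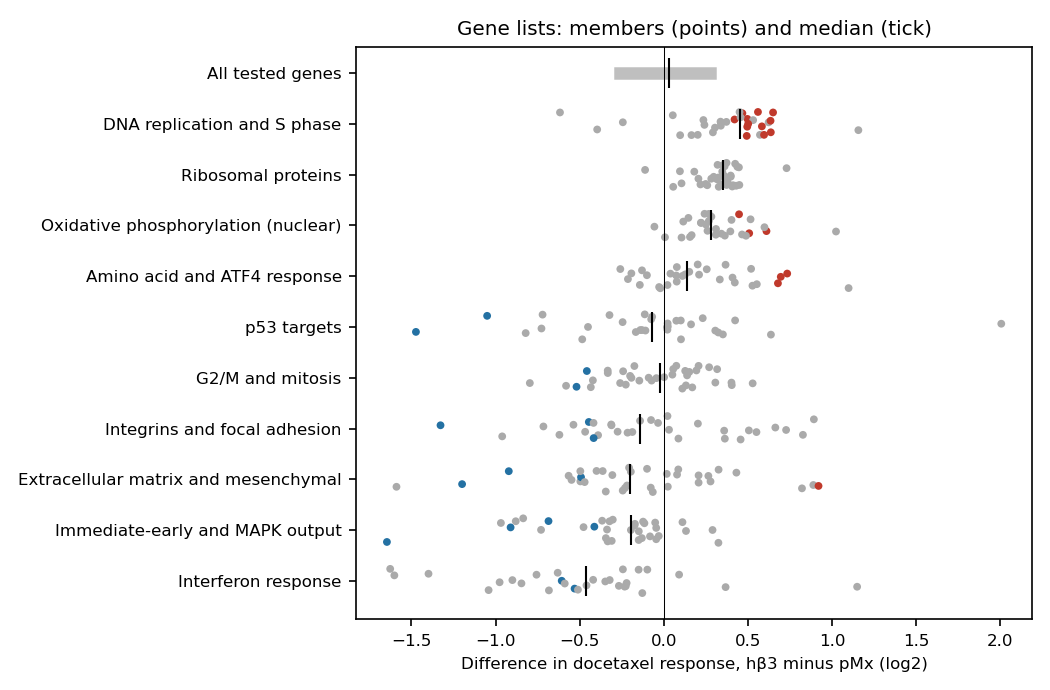
Difference in docetaxel response (log2, hβ3 minus pMx) of the tested members of 10 gene lists (points, red called higher, blue called lower, grey not called) with each list's median (tick), below the interquartile range of all tested genes (bar). DNA replication, ribosomal protein and oxidative phosphorylation genes lie to the right of 0, and interferon genes lie to the left.

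Genes of ribosomal proteins and of oxidative phosphorylation lay almost all above 0, with few called. Of 34 ribosomal protein genes 33 lay above 0 for the difference, against 6211 of all 11646 genes, at a median of 0.35, with 0 called by edgeR in either direction, 6 at an unadjusted p under 0.05 and 1 called by DESeq2. In pMx 11 of them fell (11.6% over all genes) and 0 rose. Of 29 nuclear genes of oxidative phosphorylation 28 lay above 0, at a median of 0.28, and 3 were called higher, against 0.91% over all genes. These were Ndufa4 (0.61 ± 0.13, adjusted p = 0.0234) and Ndufb8 (0.51 ± 0.13, adjusted p = 0.0481) of the respiratory chain and Sdhd, a subunit of succinate dehydrogenase (0.45 ± 0.11, adjusted p = 0.0401). Each of these 3 lost its call without any 1 of at least 7 libraries (adjusted p up to 0.171).

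The difference in response moved with transcript length across all genes. In 4 equal groups of genes from the shortest to the longest transcripts, the median difference was 0.20, 0.08, -0.01 and -0.14. The called genes with a higher response in hβ3 numbered 46, 31, 19 and 10 in the same order, and those with a lower response 8, 20, 21 and 58. The median length was 2036 bases for genes called higher and 5052 bases for genes called lower, against 2888 bases for all tested genes. Rn45s shares differed between the groups as well, and the part of either in these differences was not tested.

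With the trend on length removed from each library, 176 genes were called, 97 higher and 79 lower, and 128 of them were among the 213. The medians of the 4 length groups were then 0.02, 0.02, 0.02 and 0.00. DNA replication kept a median of 0.40 with 10 of 33 called higher, and interferon response one of -0.54 with 3 of 29 called lower. The medians of ribosomal proteins and oxidative phosphorylation were 0.11 and 0.13, and 0 genes of oxidative phosphorylation were called. Among the named genes Lama5, Mettl7a1, Ndufa4, Ndufb8, Nxph3, Psat1, Sdhd, Sec24a, Tln1, Tmem37 and Vcl were not called with this correction.

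**Figure D5:**
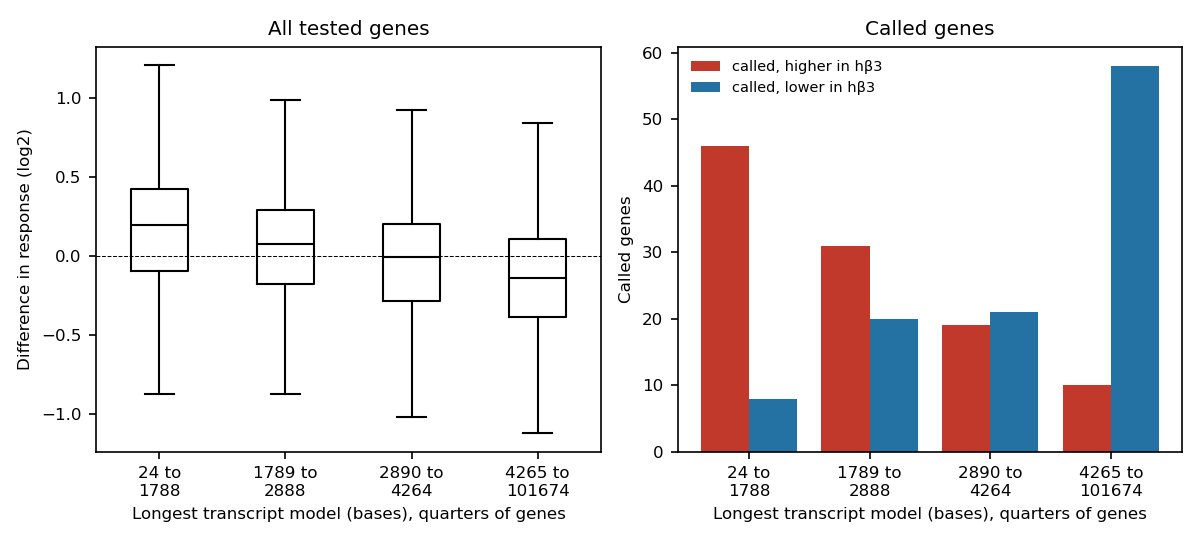
Left, difference in docetaxel response (log2, hβ3 minus pMx) of all tested genes in 4 equal groups by the length of the longest transcript model (box, interquartile range with the median; outliers not drawn). Right, genes called higher (red) and lower (blue) in the same groups. The medians go from 0.20 to -0.14, and 58 of the 107 genes called lower are in the longest group.

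Among the 12 largest positive differences in response, Apcdd1 (chromosome 18, 62922231 to 62961179), an inhibitor of WNT signalling at the cell surface, gave the smallest p. It had 195, 191 and 191 CPM in hβ3 cultures with docetaxel and 157, 177 and 173 CPM in hβ3 cultures with DMSO, against 124, 113 and 121 CPM in pMx cultures with docetaxel and 214, 222 and 218 CPM in pMx cultures with DMSO. The groups did not overlap, with pMx highest in DMSO and lowest with docetaxel. Its response was 0.19 in hβ3, not called, and it fell by 0.87 in pMx, with a difference of 1.05 ± 0.10 (adjusted p = 6.99e-06), and the call was kept under every alternative setting run. It was the only called gene of 21 in the WNT list, against 0.91% called higher over all genes.

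Mctp2 (chromosome 7, 72077830 to 72306608), a calcium-binding membrane protein, had 22.2, 22.04 and 18.4 CPM in hβ3 cultures with docetaxel and 5.68, 6.42 and 5.67 CPM in hβ3 cultures with DMSO, against 68.7, 75.7 and 72.04 CPM in pMx cultures with docetaxel and 66.9, 56.98 and 60.5 CPM in pMx cultures with DMSO. It rose in hβ3 by 1.82, without reaching the pMx level, and had 0.23 in pMx, with a difference of 1.58 ± 0.15 (adjusted p = 8.25e-06). Scara5, a scavenger receptor for ferritin, rose in both lines, by 2.05 in hβ3 and 0.78 in pMx, and the difference was 1.27 ± 0.27 (adjusted p = 0.0203). Its highest culture had 4.67 CPM in hβ3, against at least 15.9 CPM in every pMx culture, and its call was lost without any 1 of 4 libraries (adjusted p up to 0.0683).

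Prkar2b (chromosome 12, 31958476 to 32061296), a regulatory subunit of protein kinase A, had 56.5, 62.4 and 51.9 CPM in hβ3 cultures with docetaxel and 40.8, 49.8 and 39.2 CPM in hβ3 cultures with DMSO, against 45.9, 43.7 and 45.2 CPM in pMx cultures with docetaxel and 79.4, 79.96 and 66.6 CPM in pMx cultures with DMSO. It rose by 0.40 in hβ3 and fell by 0.74 in pMx, with a difference of 1.14 ± 0.15 (adjusted p = 0.000346). Ak5, an adenylate kinase, had 121, 126 and 128 CPM with docetaxel and 151, 159 and 151 CPM with DMSO in hβ3, against 27.4, 24.7 and 25.5 CPM with docetaxel and 61.4, 58.6 and 63.9 CPM with DMSO in pMx. It fell by 0.30 in hβ3 and by 1.25 in pMx, with a difference of 0.95 ± 0.11 (adjusted p = 5.86e-05). Ak5 overlaps exons of Zzz3 on the other strand.

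Mettl7b (chromosome 10, 128958274 to 128960988), a methyltransferase of the endoplasmic reticulum and lipid droplets, had 8.68, 8.25 and 10.7 CPM in hβ3 cultures with docetaxel and 20.1, 20.2 and 17.96 CPM in hβ3 cultures with DMSO, against 1.32, 1.54 and 1.45 CPM in pMx cultures with docetaxel and 8.22, 7.81 and 8.34 CPM in pMx cultures with DMSO. It fell in both lines, by 1.08 in hβ3 and by 2.49 in pMx, with a difference of 1.41 ± 0.23 (adjusted p = 0.00296), and its exons overlap those of Itga7 on the other strand. Siglecg, an inhibitory sialic acid receptor, fell by 0.74 in hβ3 and by 1.70 in pMx, with a difference of 0.97 ± 0.18 (adjusted p = 0.00933). The largest positive difference by the naming rule was that of Prss2, a trypsinogen, at 2.61 ± 0.51 (adjusted p = 0.0123), but at only 0.44 to 5.54 CPM per culture. Its pMx docetaxel cultures alone ran from 0.44 to 2.07 CPM, and DESeq2 did not call it.

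The other large positive differences were those of Nxph3 (1.02), Adra1d (1.02), Mettl7a1 (0.95) and Tmem37 (0.93). Nxph3 encodes a neurexin ligand, Adra1d an adrenergic receptor, Mettl7a1 a relative of Mettl7b, and Tmem37 a relative of calcium channel subunits. Each lost its call without some single libraries: Nxph3 and Mettl7a1 without any 1 of 9, Tmem37 without any 1 of 10, and Adra1d without pMx docetaxel culture 3, with adjusted p up to 0.127, 0.113, 0.129 and 0.0560 in that order.

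Tubb2b (chromosome 13, 34126748 to 34130466), a β-tubulin and so part of the structure docetaxel binds, had the largest negative difference by the naming rule. It had 11.1, 15.1 and 14 CPM in hβ3 cultures with docetaxel and 8.38, 9.09 and 7.42 CPM in hβ3 cultures with DMSO. In pMx it had 11.5, 10.7 and 10.8 CPM in cultures with docetaxel and 2.41, 1.64 and 2.25 CPM in cultures with DMSO. It rose in both lines, by 0.69 in hβ3 and 2.40 in pMx, to overlapping levels, and the difference was -1.71 ± 0.25 (adjusted p = 0.001). Tubb3, the neuronal β-tubulin, chosen after its values were seen, had a response of 0.20 in hβ3 and rose by 0.85 in pMx, with a difference of -0.65 ± 0.11 (adjusted p = 0.00459). They were the only called genes of 22 tubulins and microtubule regulators, against 0.919% called lower over all genes. The median difference of the 22 was 0.06.

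Rnf213 (chromosome 11, 119393100 to 119487418), a large ubiquitin ligase, had 31.6, 30.6 and 34.1 CPM in hβ3 cultures with docetaxel and 48.4, 34.4 and 44.9 CPM in hβ3 cultures with DMSO, against 52.5, 45.6 and 50.1 CPM in pMx cultures with docetaxel and 21.3, 24.03 and 22.7 CPM in pMx cultures with DMSO. It fell by 0.41 in hβ3 and rose by 1.12 in pMx, with a difference of -1.53 ± 0.17 (adjusted p = 3.3e-05). The deposited table counts it on a model of 575 bases, and its exons overlap those of A930037H05Rik on the other strand. Fat1 (chromosome 8, 44935447 to 45052257), a giant protocadherin, had 762, 659 and 761 CPM with docetaxel and 958, 746 and 901 CPM with DMSO in hβ3, against 656, 519 and 618 CPM with docetaxel and 369.5, 347 and 358 CPM with DMSO in pMx. Its response was -0.26 in hβ3, not called, and it rose by 0.74 in pMx, with a difference of -0.99 ± 0.14 (adjusted p = 0.000735).

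Jmjd1c, a relative of histone demethylases, had a response of 0.02 in hβ3 and rose by 1.02 in pMx, with a difference of -0.998 ± 0.19 (adjusted p = 0.00933). Sec24a, a coat protein of vesicles that leave the endoplasmic reticulum, had -1.497 ± 0.35 (adjusted p = 0.0353) at 1.88 to 5.92 CPM, and its call was lost without any 1 of 9 libraries (adjusted p up to 0.1) and with DESeq2. S100a7a (chromosome 3, 90654017 to 90658669), a calcium-binding protein of inflamed epithelia, missed the threshold with -1.08 ± 0.28 (adjusted p = 0.0528, 95% interval from -1.62 to -0.53). It had 25.3, 30.2 and 26.2 CPM in hβ3 cultures with docetaxel and 58.4, 58.7 and 55.5 CPM in hβ3 cultures with DMSO, against 1.64, 1.73 and 1.35 CPM in pMx cultures with docetaxel and 2.32, 1.18 and 1.26 CPM in pMx cultures with DMSO. It fell by 1.08 in hβ3 and had 0.00 in pMx, at 1.18 to 2.32 CPM per culture, and it was called in 9 of 24 alternatives, among them no filter on low counts (adjusted p = 0.0116), DESeq2 (0.014) and the correction for transcript length (0.018).

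In the remaining lists few genes were called, where the shares over all genes were 0.91% higher and 0.919% lower. For NF-kB and secreted inflammatory factors 0 of 17 were called higher and 2 lower, Nfkbia (-0.70), the inhibitor of NF-kB, and Ptgs2 (-0.49), the inducible cyclooxygenase. For TGFβ and SMAD targets 1 of 21 was higher, Grem1 (0.78), and 1 lower, Inhba (-0.98), and for the BCL2 family and death receptors 1 of 24 was higher, Bok (0.72), and 1 lower, Pmaip1. Glycolysis and hypoxia had Egln3 (0.58) and Ndrg1 (-0.90) of 28, NRF2 targets had Gstm1 (0.80) of 18 and the lysosome list had Npc1 (-0.42) of 22. Apart from Pmaip1 these genes were chosen after their values were seen. Of them all Grem1, Ndrg1, Nfkbia and Pmaip1 kept their call without any 1 library.

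No gene was called among 13 endoplasmic reticulum chaperones, 18 heat shock genes, 30 genes of sterol and fatty acid synthesis, 29 of ribosome assembly, 22 ABC transporters, 19 of the EGF receptor family, 16 of the S100 and epidermal list or 7 luminal markers. Of these 154 genes edgeR called 0, DESeq2 called 4 and 32 had an unadjusted p under 0.05 in edgeR's test, against 1752 of all 11646 genes. Of 54 tested markers of other cell types edgeR and DESeq2 called 0, with 3 at an unadjusted p under 0.05, and for heart muscle 19 of 19 tested markers lay above 0, at a median difference of 0.63. The part of heart transcripts in the differences was not tested. Without pMx docetaxel culture 1 and pMx DMSO culture 1, the libraries with the most of them, 166 genes were called.

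The cells rescued with signalling-deficient Δβ3 were not in the comparison. Their responses were set against the hβ3 and pMx responses that had chosen the genes, so the counts below are not independent of that choice. Among the 106 genes with a higher response in hβ3 the estimated Δβ3 response lay nearer to that of pMx for 94 and nearer to that of hβ3 for 12, and among the 107 with a lower response for 101 and 6. These values are without Δβ3 DMSO culture 1 and Δβ3 docetaxel culture 2, whose heart markers summed to 7466 and 55230 on the scale without Rn45s. With all 6 libraries the counts nearer to pMx were 78 of 106 and 82 of 107. The median Δβ3 response with 4 libraries was -0.33 for the higher genes, against 0.11 in hβ3 and -0.47 in pMx, and 0.36 for the lower genes, against -0.18 in hβ3 and 0.54 in pMx.

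Single genes differed in this. In Δβ3 with 4 libraries Plk2 rose by 1.15 ± 0.10 (SE), Rgs2 by 1.45 ± 0.15 and Itga2 by 1.39 ± 0.18, all near their pMx responses. Mettl7b fell by 2.38 ± 0.23 and Apcdd1 by 0.78 ± 0.08 there. For Egr1 the Δβ3 response of 0.68 ± 0.15 lay between 0.35 in hβ3 and 2.00 in pMx, nearer to hβ3. It is among the 6 of 107 genes with a lower response counted as nearer to hβ3. The genes were chosen by their responses in hβ3 and pMx, so these counts are a description with no test. The share nearer to pMx over all tested genes is not given, so the counts do not set the called genes apart from others.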

How the data were processed

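The authors deposited raw counts of reads per transcript model. Per the submitters' processing notes FastQC, HISAT2, featureCounts and the build mm10 were used. The sources used here do not give versions, annotation, strand use or what was done with reads shared by models. Per the labels' protocols, ribosomal RNA was removed, reverse transcription used random hexamers, and reads were single and 50 bases long. The table also gives model lengths in bases, another deposited column, used for the length check. Counts of 63759 models were summed over 32699 symbols, 13170 of which had several models, and all 18 sample columns were mapped. Coordinates are from GENCODE M21 (mm10), which matched 10146 of 11646 tested symbols.

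The 12 libraries were fitted in R 4.3.3 with edgeR 4.0.16: filterByExpr with 4 groups, TMM factors, a coefficient per group and the robust quasi-likelihood F-test (two-sided, 8 residual degrees of freedom, Benjamini-Hochberg over all tested genes). The biological coefficient of variation was 14.2%. SEs are the log2 change over the square root of F, and 95% intervals are 1.96 SE either side. Before use the script was tested on simulated counts.

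Named genes were the 12 largest called differences in each direction among protein-coding genes with a mean of at least 2 CPM, up to 4 called members with the smallest p of each list with at least 3, and Itgb3, Itgav, Plk2, Apcdd1, Cdkn1a, Mdm2, Rgs2, S100a7a, Usp18 and Mcm2. Some genes this rule names are not reported here. These genes and the 35 lists were chosen with earlier results of these data known. Named genes with exons that overlap another gene, beside those given above, were Adra1d, Cd274, Cdkn1a, Fat1, Itgav, Ndufb8, Tln1, Usp18 and Vcl. Alternatives were RLE factors, no filter, at least 2 CPM in 3 libraries, DESeq2 1.42.0, no robust option, all 18 libraries, Rn45s left out, a replicate block, single libraries left out and, chosen after seeing the data, a length offset per library (lowess, span 0.3) and 3 sets of libraries left out.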

Additional observations from a re-analysis of the deposited data

Results flagged for a closer look

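A test of the difference between 2 lines under the same contrast picked out 213 genes, and the named ones among them that are described above are listed here with their log2 difference in response, hβ3 minus pMx. Lower in hβ3 were Tubb2b (-1.71), Egr1 (-1.65), Rnf213 (-1.53), Sec24a (-1.497), Plk2 (-1.47), Itga2 (-1.33), Rgs2 (-1.13), Cd274 (-1.13), Pmaip1 (-1.05), Jmjd1c (-0.998), Fat1 (-0.99), Timp3 (-0.92), Junb (-0.91), Klf4 (-0.69), Lama5 (-0.49), Tln1 (-0.45), Vcl (-0.42) and Dusp4 (-0.41). Higher in hβ3 were Prss2 (2.61), Mctp2 (1.58), Mettl7b (1.41), Scara5 (1.27), Prkar2b (1.14), Apcdd1 (1.05), Nxph3 (1.02), Adra1d (1.02), Siglecg (0.97), Ak5 (0.95), Mettl7a1 (0.95), Tmem37 (0.93), Mmp3 (0.92), Ddit4 (0.73), Psat1 (0.69), Mthfd2 (0.68), Ndufa4 (0.61), Ndufb8 (0.51), Mcm4 (0.50), Mcm7 (0.49), Mcm2 (0.47) and Sdhd (0.45).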

How the results depend on the processing

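The count of 213 genes with a different response was 325 without a filter (173 higher), 431 with DESeq2 (211 higher, 220 lower), 135 without the robust option (66 higher, 69 lower), and 2 in a fit of all 18 libraries (1 higher, 1 lower). Those 2 were Plk2 and Apcdd1. In that fit the hβ3 response had 141 genes and the pMx response 440, and the biological coefficient of variation was 36.1%. Without Δβ3 DMSO culture 1 and Δβ3 docetaxel culture 2, in a fit of the other 16 libraries, it was 13.2% and 284 genes were called, 207 of them among the 213. With single libraries left out, the lowest count was 58 (pMx DMSO culture 2 left out) and the highest 395 (hβ3 DMSO culture 2 left out). That of higher genes ran from 25 to 204 and that of lower genes from 33 to 191. The hβ3 count ran from 924 to 1693 and the pMx count from 1730 to 2754. Without hβ3 DMSO cultures 1 and 3 there were 161 genes, 54 of them lower, and 938 for the hβ3 response. The cause of these changes was not tested.

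The replicate block gave 350 genes (167 higher, 183 lower), which held all 213. Samples with the same number had a median correlation of deviations of 0.04, with 5 of 18 pairs over 0.1 and a range from -0.275 to 0.354. For unlike numbers the median was -0.0255, with 10 of 36 over 0.1 and a range from -0.455 to 0.339. Of 12 samples 9 had a higher mean correlation with their own number and 6 correlated best with it. The numbers were not taken as pairs. With RLE factors there were 205 genes, with Rn45s left out 212 and with the stricter filter 235. No named gene that was called changed direction under any alternative. Of those not called, the difference of Mdm2 ran from -0.65 to 0.60, of Usp18 from -0.34 to 0.12 and of Itgav from -0.21 to 0.03. In the 18-library fit 40 named genes lost their call. The shallowest library had 7972612 counts, so genes of a few CPM, such as Mdm2, Prss2 and Sec24a, are measured with little precision.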
